A study of Saccharomyces cerevisiae with 3 samples.

Results

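The *spt3Δ* and *spt8Δ* strains of the budding yeast *Saccharomyces cerevisiae* were set directly against each other, without dividing either by the wild type strain (WT), to see in which genes the loss of Spt3 and the loss of Spt8 left different transcript levels. The comparison used 2 of the 3 Affymetrix Yeast Genome 2.0 arrays of the series, 1 for each strain, and every *S. cerevisiae* gene that the annotation of the array names, which came to 5449 genes. In the *spt3Δ* strain *SPT3* was replaced with a KanMX marker by homologous recombination, and in the *spt8Δ* strain *SPT8* was replaced in the same way. WT carried neither deletion and is given below only as a value beside those of the mutants. The labels name BY4742, a haploid *MATα* laboratory strain, as the background of all 3 strains. Each strain was grown in 5 ml of rich YPD medium at 30 °C and collected in exponential growth at an optical density of 0.7. With 1 culture and 1 array per strain, no difference below has a replicate check, and no p-value was computed. Each strain is represented by a single culture, so a difference between strains and a difference between cultures cannot be told apart.

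Spt3 and Spt8 are subunits of SAGA, a large coactivator complex that acetylates and deubiquitinates histones and helps to place TATA-binding protein (TBP) on promoters. Both belong to the portion of the complex that contacts TBP. Spt8 is missing from SLIK, a related form of SAGA with a shortened Spt7, whereas Spt3 is present in both forms, so the 2 deletions do not remove the same set of complexes.

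Values are deposited signals, in arbitrary units on a linear scale, and each ratio is the log2 of the *spt3Δ* signal over the *spt8Δ* signal, so that a negative ratio means lower in *spt3Δ*. An array's background was set at the 95th percentile of its *S. pombe* probe sets, which the design carries for a second yeast, and was 6.67 in *spt3Δ*, 8.61 in *spt8Δ* and 7.17 in WT. Of the 5449 genes, 5281 were above background on both mutant arrays, 70 on 1 of them and 98 on neither. Where a gene passed background on 1 mutant array only, or 1 of its probe sets did not pass on the dimmer array, its difference is a bound ("at least"), computed with the dimmer array at its background or at its own signal, whichever was higher. No fold is given where neither was above background. The deleted genes followed the labels. *SPT3* had a signal of 0.416 in *spt3Δ*, 332 in *spt8Δ* and 288 in WT, and was at least 49.7-fold lower in *spt3Δ* than in *spt8Δ*. *SPT8* had a signal of 514 in *spt3Δ*, 5.20 in *spt8Δ* and 346 in WT, and was at least 59.6-fold higher in *spt3Δ*. Of the markers deleted in BY4742, *LYS2* and *URA3* were not above background on any array, *LEU2* was at 18.2 in *spt3Δ*, 33.96 in *spt8Δ* and 9.50 in WT, and *HIS3*, of which part remains, was at 2638 in *spt3Δ*, 1774 in *spt8Δ* and 1589 in WT. *MET17* and *ADE2*, which BY4742 keeps, had ratios of −0.11 and −0.13, with *MET17* at 7739 in *spt3Δ*, 8377 in *spt8Δ* and 6686 in WT. The strain table of the study lists a *MATa* genotype, but *STE3*, the pheromone receptor of *MATα* cells, was at 1859 in *spt3Δ*, 2544 in *spt8Δ* and 3727 in WT, and *STE2*, that of *MATa* cells, at 29.5 in *spt3Δ*, 50.7 in *spt8Δ* and 48.3 in WT.

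Most transcripts differed little between the mutants. The ratio had a median of 0.09 over all genes, quartiles of −0.14 and 0.32 and an SD of 0.53, and 96.4% of the genes lay within 2-fold. Following the rule of the study, a gene was called where its ratio lay over 2 SD from the mean of all genes, that is below −0.997 (1.99-fold lower in *spt3Δ*) or above 1.10 (2.15-fold higher). By this rule 143 genes were lower in *spt3Δ* than in *spt8Δ*, which is 2.62% of those compared, and 46 were higher, which is 0.844%. Both arrays detected 90 of the lower genes above background, 1 array detected 23 and neither detected 30. For the higher genes these numbers were 21, 10 and 15. Calls crowded among weakly detected genes. The 1363 genes with the lowest mean signal held 110 of the lower and 38 of the higher calls, and their ratios had an SD of 0.86, against 0.25 in the 1362 brightest genes. The ratio also shifted with signal, with a median of 0.20 in the 1362 genes that follow the dimmest and of −0.07 in the brightest, so that medians of gene groups are also given after a loess correction for signal (median of all genes −0.01).

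**Figure D1:**
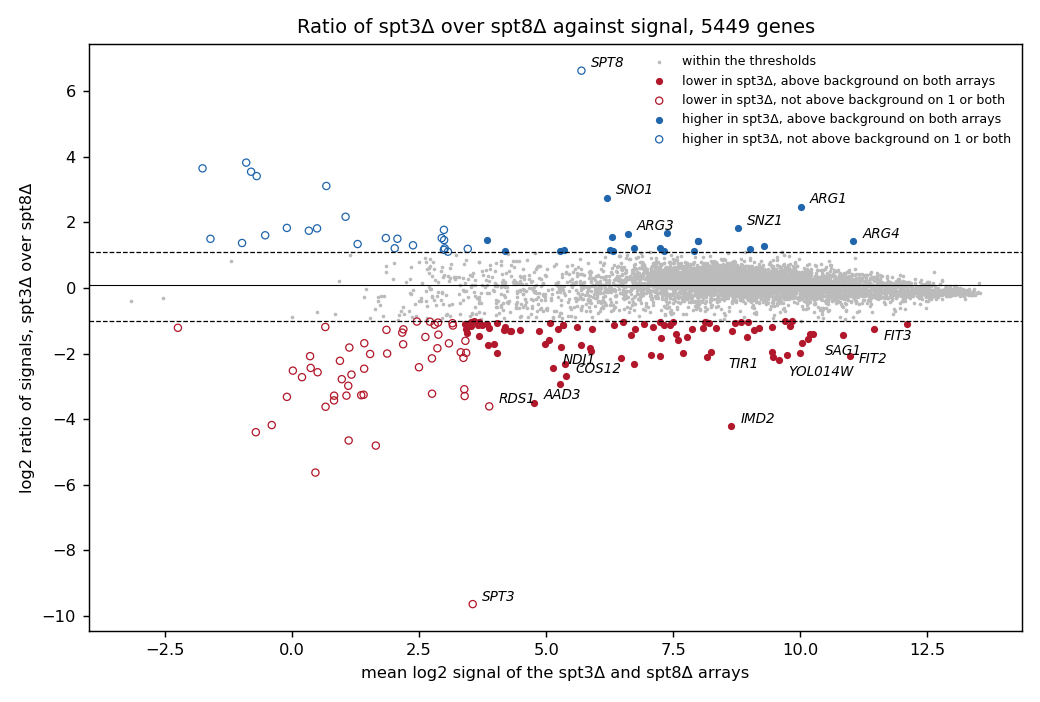
The log2 ratio of *spt3Δ* over *spt8Δ* (vertical axis) is plotted against the mean log2 signal of both arrays (horizontal axis) for 5449 genes, each 1 point. Dashed lines mark the call thresholds of −0.997 and 1.10, the solid line the median of 0.09, and open circles are called genes not above background on 1 or both arrays. Among well-detected genes, *IMD2* is the lowest and *SNO1* and *ARG1* are the highest.

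The WT array, which the calls did not use, showed where each mutant stood. Of the 89 lower genes above background on all 3 arrays, WT was nearer to *spt8Δ* on the log2 scale for 68 and nearer to *spt3Δ* for 21. The median signal over all genes in WT (430) was also nearer to that in *spt8Δ* (460) than in *spt3Δ* (506). WT lay between the mutants for 44 of these genes, above both for 41 and below both for 4. For the genes with WT above both, the transcript was lower than in WT in each mutant and lower still in *spt3Δ*. Of the 21 higher genes above background on all 3 arrays, WT was nearer to *spt3Δ* for 8 and nearer to *spt8Δ* for 13, and it lay between the mutants for 11, above both for 4 and below both for 6.

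The lowest ratio among genes detected on both arrays belonged to *IMD2*, which encodes an IMP dehydrogenase, the enzyme that commits purine synthesis to guanine nucleotides. Its signal was 92.6 in *spt3Δ*, 1719 in *spt8Δ* and 754 in WT, a difference of 18.6-fold between the mutants (log2 ratio −4.21). The mutants thus stood on opposite sides of WT, *spt3Δ* 8.15-fold below it and *spt8Δ* 2.28-fold above it. The probe set of *IMD2* is one that the array shares between near-identical genes, so signal from a relative cannot be told apart. The related genes *IMD3* and *IMD4* had their own probe sets and small ratios, −0.18 and −0.31. *IMD3* was at 4823 in *spt3Δ*, 5469 in *spt8Δ* and 5742 in WT. Among the 18 purine genes measured, *IMD2* was the only one called, and 17 lay below the median of all genes, with a list median of −0.20 (−0.14 after loess). *AAH1*, the adenine deaminase, had a ratio of −0.69, and *ADE17*, an enzyme of IMP synthesis, −0.60, neither past the threshold.

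Genes near chromosome ends were more often lower in *spt3Δ* than other genes. They were taken as the 8 probed genes nearest to the end of each of the 32 arms, 256 genes in all. Of these, 36 were called lower in *spt3Δ*, which is 14.1%, against 2.06% of the 5193 other genes and 2.62% of all. In the other direction 8 were called higher, which is 3.12%, against 0.732% of the others. Of the 256 genes, 52 have a probe set shared between genes, against 125 of all 5449. With shared probe sets left out and the 8 outermost remaining genes taken per arm, 33 were called lower and 7 higher. The median ratio was −0.15 for the subtelomeric genes and 0.09 for the others, and 180 of the 256 lay below the median of all genes. Subtelomeric genes were weakly expressed, with median signals of 106 in *spt3Δ* and 108 in *spt8Δ*, while the medians elsewhere were 526 in *spt3Δ* and 477 in *spt8Δ*. Among the 219 subtelomeric genes above background on both arrays, 25 were called lower and 1 higher, with a median of −0.14, while among the 5062 such genes elsewhere 65 were called lower and 20 higher, with a median of 0.10. With 50 added to each signal, which damps the ratios of weak genes and moves the thresholds, 26 subtelomeric genes were called lower and 2 higher, and 19 of the 36 and 1 of the 8 were among them.

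The shift was strongest at the very ends. The 4 outermost genes of all arms had a median of −0.23 with 22 of 128 lower, the next 4 had a median of −0.09 with 14 of 128 lower, and places 9 to 16 had a median of 0.02 with 12 of 256 lower. By arm, 28 of 32 medians lay below the median of all genes. The lowest were the right arm of chromosome III (−1.93), the right arm of chromosome I (−1.02) and the left arm of chromosome VII (−0.81), and the highest was the right arm of chromosome XII (0.46).

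**Figure D2:**
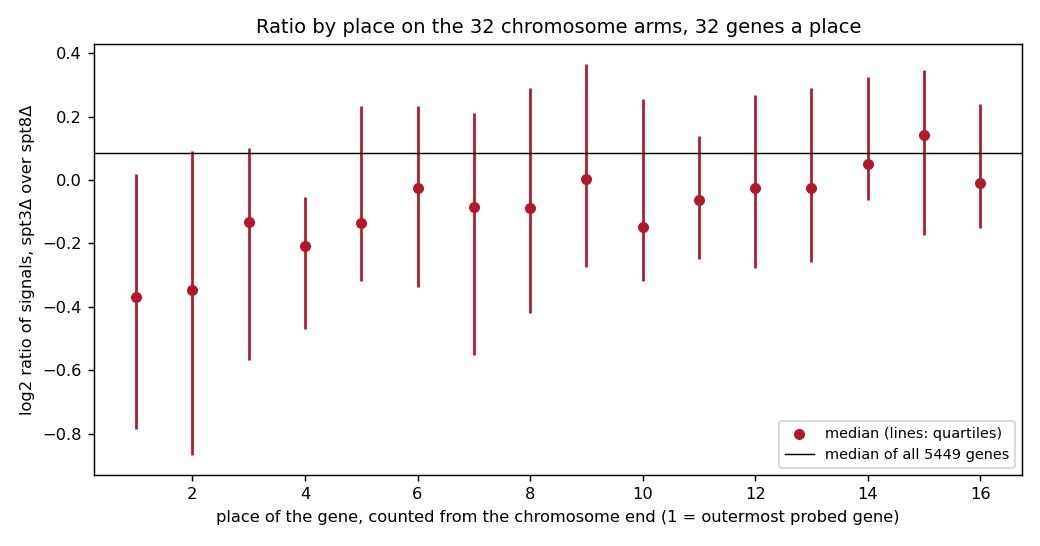
The log2 ratio of *spt3Δ* over *spt8Δ* (vertical axis) is shown by the place of a gene counted from the chromosome end (horizontal axis), with points for medians and lines for quartiles over 32 arms. The outermost place has a median of −0.37, and medians come nearer to the median of all genes (horizontal line, 0.09) further inside.

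At the right end of chromosome III (Chr IIIR), 7 of the 8 outermost genes were called lower in *spt3Δ* and none higher. *RDS1*, a zinc cluster protein, had a signal of 4.21 in *spt3Δ*, which was not above background, 51.4 in *spt8Δ* and 73.1 in WT, and was at least 7.71-fold lower in *spt3Δ* than in *spt8Δ*. *ADH7*, an alcohol dehydrogenase, was at 3.36 in *spt3Δ*, also not above background, 33.0 in *spt8Δ* and 53.4 in WT, and was at least 4.94-fold lower. *AAD3*, a putative aryl-alcohol dehydrogenase, averaged 8.07 in *spt3Δ*, 91.9 in *spt8Δ* and 87.1 in WT over 3 probe sets, and with the probe set that was not above background in *spt3Δ* set at background it was at least 8.89-fold lower. All 3 probe sets of *AAD3* pointed the same way, with log2 ratios of −3.998, −3.41 and −3.12, although 2 of them are shared with related genes and the unshared one is the one not above background in *spt3Δ*. By the unshared probe set alone, *AAD3* was at least 5.04-fold lower. In *spt8Δ* the 3 genes were within 1.62-fold of WT.

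The remaining genes of the arm differed less. *YCR102C* was at 4.94 in *spt3Δ* (not above background), 21.7 in *spt8Δ* and 34.3 in WT, and at least 3.25-fold lower in *spt3Δ*. *YCR099C* was at 17.2 in *spt3Δ*, 56.8 in *spt8Δ* and 66.1 in WT, 3.30-fold lower. *GIT1*, a permease for glycerophosphoinositol just inside the 8 outermost genes, was at 8.16 in *spt3Δ*, 32.4 in *spt8Δ* and 37.4 in WT, 3.98-fold lower. For each of these genes *spt8Δ* was below WT, by 1.58-fold for *YCR102C*, 1.16-fold for *YCR099C* and 1.15-fold for *GIT1*, and *spt3Δ* was lower still. *PAU3*, a seripauperin whose probe set is shared across its family, was at 7.64 in *spt3Δ*, 17.0 in *spt8Δ* and 18.1 in WT. The outermost gene, *YCR108C*, broke the pattern in WT, with 12.4 in *spt3Δ*, 31.0 in *spt8Δ* and 8.46 in WT, so that both mutants were above WT. For *YCR101C* no array gave a signal above background. All these signals were low, and *PAU3* lost its call after quantile or loess scaling and after adding 50 to each signal, as did *YCR102C*, *GIT1* and *YCR108C* after adding 50.

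**Figure D3:**
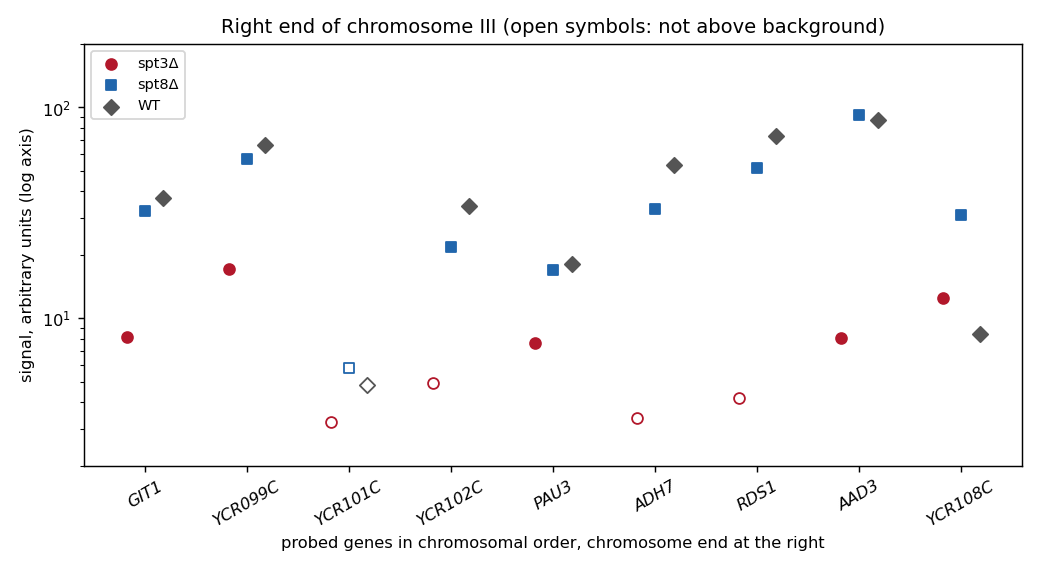
Signals (vertical log axis, arbitrary units) of the probed genes at the right end of chromosome III, in chromosomal order with the end at the right, for *spt3Δ* (circles), *spt8Δ* (squares) and WT (diamonds). Open symbols are not above background. The *spt3Δ* point is the lowest of the 3 at every gene but *YCR108C*, where WT is lowest at 8.46.

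Other ends held strongly differing genes too. *COS12*, the outermost probed gene of the left arm of chromosome VII and a member of the COS family of membrane proteins, was at 16.5 in *spt3Δ*, 107 in *spt8Δ* and 228 in WT, 6.49-fold lower in *spt3Δ* than in *spt8Δ*. *COS8* was at 596 in *spt3Δ*, 1329 in *spt8Δ* and 1711 in WT, 2.23-fold lower. *COS10* was at 8.70 in *spt3Δ*, 28.5 in *spt8Δ* and 27.3 in WT, 3.27-fold lower, a call lost after adding 50 to each signal. All 8 measured COS genes had ratios below the median of all genes, between −2.70 and −0.20, with a list median of −0.51 (−0.60 after loess). Of these genes, 3 were called lower, against 2.62% of all genes and 14.1% of the subtelomeric genes, to which all 8 belong. Of the 8 genes, 3 have shared probe sets, and over the other 5, which hold the 3 calls, the median was −1.16. On every COS gene *spt3Δ* was below WT, and *spt8Δ* was below WT on 7. The seripauperin genes, cell wall proteins of repeated sequence near chromosome ends, lay below the median of all genes in 13 of 13 cases with a median of −0.44, but every one has a shared probe set and only *PAU3* was called. Over the 3 of them that also have an unshared probe set, the median of those unshared probe sets was −0.215, with none called. *YIR042C*, the outermost gene of the right arm of chromosome IX, was at 3.59 in *spt3Δ* (not above background), 30.5 in *spt8Δ* and 84.3 in WT, at least 4.58-fold lower in *spt3Δ*. Families were not uniform, since *AAD4*, *AAD10* and *AAD14*, relatives of *AAD3* near other ends, had ratios between −0.03 and 0.10, and *AAD6* had a ratio of 0.58.

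On the right arm of chromosome I, 4 genes were called lower. The outermost, *PHO11*, an acid phosphatase gene with a shared probe set, was at 342 in *spt3Δ*, 1460 in *spt8Δ* and 6475 in WT. Its neighbour *YAR068W*, a putative membrane protein, was at 717 in *spt3Δ*, 1907 in *spt8Δ* and 846 in WT. The 2 neighbours therefore held the same order between the mutants, 4.27-fold and 2.66-fold lower in *spt3Δ*, while their position relative to WT differed. On the right arm of chromosome XIII, *DIA1*, a gene of invasive growth, was at 154 in *spt3Δ*, 594 in *spt8Δ* and 280 in WT, and on the right arm of chromosome XV, *YOR385W* was at 512 in *spt3Δ*, 2044 in *spt8Δ* and 903 in WT. In the other direction, *OPT2*, an oligopeptide transporter on the right arm of chromosome XVI, was at 134 in *spt3Δ*, 45.7 in *spt8Δ* and 84.9 in WT, 2.93-fold higher in *spt3Δ*. It was the only higher subtelomeric call above background on both arrays.

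The iron regulon, the genes that Aft1 and Aft2 induce when iron is scarce, was the functional list with the most lower calls. Of 29 genes measured, 7 were called lower in *spt3Δ* and none higher, against 2.62% and 0.844% of all genes, and 26 lay below the median of all genes, with a list median of −0.40 (−0.48 after loess). *FIT2*, one of the cell wall mannoproteins that hold iron carried by siderophores, was at 980 in *spt3Δ*, 4106 in *spt8Δ* and 3487 in WT, 4.19-fold lower in *spt3Δ* than in *spt8Δ*. *FIT3* was at 1816 in *spt3Δ*, 4350 in *spt8Δ* and 2352 in WT, 2.40-fold lower. *FIT1* was at 61.8 in *spt3Δ*, 168 in *spt8Δ* and 145 in WT, 2.72-fold lower. Thus for each FIT gene *spt8Δ* was the highest of the 3 arrays and *spt3Δ* the lowest.

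Siderophore transporters followed the same order. *ARN1* was at 382 in *spt3Δ*, 884 in *spt8Δ* and 692 in WT, 2.32-fold lower in *spt3Δ* than in *spt8Δ*. *ARN2* was at 350 in *spt3Δ*, 847 in *spt8Δ* and 586 in WT, 2.42-fold lower. *ENB1*, the transporter of enterobactin, was at 349 in *spt3Δ*, 724 in *spt8Δ* and 1075 in WT, here with WT the highest. *TIS11*, an RNA-binding protein that promotes decay of transcripts of iron-using proteins, was at 196 in *spt3Δ*, 399 in *spt8Δ* and 315 in WT. All 4 were past the threshold. The reductive uptake system differed less: *FET3*, the multicopper oxidase, had a ratio of −0.48, its partner permease *FTR1* −0.30 and the reductase *FRE1* −0.45, none past the threshold. The regulators themselves lay on the other side, with ratios of 0.16 for *AFT1* and 0.58 for *AFT2*. Of the 29 genes, 22 were below WT in *spt3Δ* and 14 in *spt8Δ*. *FIT1*, *ARN1*, *ARN2* and *ENB1* also lie among the 8 outermost genes of an arm and are counted with the subtelomeric genes above. Zinc genes, a list of 14, had a median of −0.27 (−0.32 after loess) with none called, and *ZRT1*, the high-affinity zinc transporter, was at 274 in *spt3Δ*, 487 in *spt8Δ* and 838 in WT.

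Hypoxic and cold-induced surface genes were lower in *spt3Δ* for some members. *TIR1*, a cell wall mannoprotein, was at 352 in *spt3Δ*, 1363 in *spt8Δ* and 2618 in WT, 3.88-fold lower in *spt3Δ* than in *spt8Δ*. *ANB1*, the hypoxic isoform of translation factor eIF5A, was at 584 in *spt3Δ*, 1864 in *spt8Δ* and 1195 in WT, 3.19-fold lower. *DAN1*, a mannoprotein of anaerobic cells, was at 7.19 in *spt3Δ*, 15.5 in *spt8Δ* and 52.2 in WT, 2.16-fold lower, a call lost under quantile and loess scaling and after adding 50. These were the 3 of 18 genes called, and none was called higher, against 2.62% lower and 0.844% higher over all genes. The list median was −0.44 (−0.54 after loess). *CYC7*, the hypoxic isoform of cytochrome c, had the opposite sign, with 123 in *spt3Δ*, 61.8 in *spt8Δ* and 74.96 in WT (log2 ratio 0.99). *OLE1*, the fatty acid desaturase, and *HEM13*, of haem synthesis, had ratios of −0.63 and −0.46.

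Of 40 general stress genes, many of them targets of Msn2 and Msn4, 6 were called lower in *spt3Δ* and none higher. The shares over all genes were 2.62% and 0.844%, and the list median was −0.14 (−0.32 after loess). *DDR2*, a small stress-induced protein, was at 47.4 in *spt3Δ*, 236 in *spt8Δ* and 662 in WT, 4.99-fold lower in *spt3Δ* than in *spt8Δ*. *HSP30*, a plasma membrane protein that damps the proton pump under stress, was at 104 in *spt3Δ*, 409 in *spt8Δ* and 275 in WT, 3.92-fold lower. *SPI1*, a cell wall protein, was at 111 in *spt3Δ*, 335 in *spt8Δ* and 675 in WT, 3.01-fold lower. The order among the arrays was therefore not the same for all of them, with WT highest for *DDR2* and *SPI1* and *spt8Δ* highest for *HSP30*. *YGP1*, a secreted glycoprotein, was at 748 in *spt3Δ*, 1995 in *spt8Δ* and 2360 in WT, and *SOL4*, a phosphogluconolactonase-like protein, was at 27.0 in *spt3Δ*, 59.5 in *spt8Δ* and 87.0 in WT, 2.21-fold lower, a call lost under quantile scaling and after adding 50. *XBP1*, the last of the 6, was not above background on either mutant array. Some classical members of the list were not called, with ratios of −0.81 for *HSP12*, −0.54 for *HSP26*, 0.11 for the catalase gene *CTT1* and 0.22 for *HSP104*. *MSN2* and *MSN4* had ratios of −0.10 and −0.06. The list of 24 heat shock chaperones had no call and a median of 0.05 (0.03 after loess), and that of 29 oxidative stress genes had none either, with a median of −0.09 (−0.04 after loess).

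A small number of genes tied to calcium signalling and to the cell surface were lower in *spt3Δ* than in *spt8Δ*. *CMK2*, a calmodulin-dependent protein kinase, was at 419 in *spt3Δ*, 1728 in *spt8Δ* and 584 in WT, 4.12-fold lower in *spt3Δ* than in *spt8Δ*. *RCN2*, which binds and inhibits calcineurin, was at 456 in *spt3Δ*, 1054 in *spt8Δ* and 728 in WT, 2.31-fold lower. *GSC2*, a glucan synthase subunit, sat at the threshold, with 584 in *spt3Δ*, 1173 in *spt8Δ* and 1146 in WT, 2.01-fold lower. The calcium list, assembled after these values were seen, held 3 lower calls among 16 genes, against 2.62% of all genes. The other 13 had ratios between −0.20 and 0.30. They included *PMC1*, the vacuolar calcium pump (0.07), *CNB1*, the calcineurin regulatory subunit (0.04), and *CRZ1*, the calcineurin-regulated transcription factor (0.30). *YPS1*, an aspartyl protease anchored at the cell surface, was at 661 in *spt3Δ*, 1949 in *spt8Δ* and 1346 in WT, 2.95-fold lower. Its neighbour and relative *YPS3* was at 74.2 in *spt3Δ*, 310 in *spt8Δ* and 255 in WT, 4.18-fold lower. Among the other yapsins, *YPS6* was at 41.6 in *spt3Δ*, 63.98 in *spt8Δ* and 102 in WT (ratio −0.62), *MKC7* and *YPS7* had ratios of −0.28 and −0.17, and *YPS5* was not above background on either mutant array. *RCR1*, a membrane protein linked to chitin deposition, was at 293 in *spt3Δ*, 836 in *spt8Δ* and 406 in WT, 2.85-fold lower. Of 42 cell wall genes, *GSC2* was the only one called, with a list median of −0.19 (−0.22 after loess).

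Mating genes were lower in *spt3Δ* in part. *SAG1*, the alpha-agglutinin by which *MATα* cells adhere to their partner, was at 1109 in *spt3Δ*, 2984 in *spt8Δ* and 5826 in WT, 2.69-fold lower in *spt3Δ* than in *spt8Δ*. *MF(ALPHA)2*, a minor alpha-factor gene, was at 3000.5 in *spt3Δ*, 6389 in *spt8Δ* and 9414 in WT, 2.13-fold lower, a call lost after loess scaling. *STE3* had a ratio of −0.45, and *MF(ALPHA)1*, the major alpha-factor gene, −0.05. All 6 alpha-specific genes lay below the median of all genes, and 2 of them were called lower, against 2.62% of all genes. The direction was not particular to them. The 7 a-specific genes had 2 lower calls and a median of −0.78 (−0.73 after loess). Their signals were weak, at most 48.5 in *spt3Δ* and 50.7 in *spt8Δ*, and 5 of the 7 were above background on both mutant arrays. Among 31 genes of the pheromone response and of haploid cells, 4 were called lower and none higher, against 2.62% and 0.844% of all genes. On both mutant arrays 30 of the 31 were above background. The remaining gene, at 1.83 in *spt3Δ* and 7.32 in *spt8Δ*, was among the 4 called. The list median of 0.08 (−0.08 after loess) was close to that of all genes. *FUS1*, needed for cell fusion, was at 90.8 in *spt3Δ*, 259 in *spt8Δ* and 359 in WT, 2.85-fold lower. *AGA1*, an anchor of the agglutinin of *MATa* cells, was at 293 in *spt3Δ*, 609 in *spt8Δ* and 1259 in WT, 2.08-fold lower. *PRM1*, of membrane fusion, was at 7.75 in *spt3Δ*, 21.4 in *spt8Δ* and 67.7 in WT, 2.75-fold lower, a call lost after adding 50. All 3 had the order *spt3Δ*, *spt8Δ*, WT from low to high. The signalling genes upstream had small ratios of mixed sign, among them *STE12*, the transcription factor of the pathway (−0.10), *FUS3*, its kinase (−0.33), *STE4*, a G protein subunit (0.37), and *GPA1* (0.51).

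Phosphate genes were lower than WT on both mutant arrays in most cases, 19 of 22 in *spt3Δ* and 20 of 22 in *spt8Δ*, yet they split evenly between the mutants. Their median ratio was 0.03 (0.06 after loess), with 11 genes below and 11 above the median of all genes. Of the 22 genes, 3 were called lower, against 2.62% of all genes. Besides *PHO11* and *GIT1*, given above, the call was made for *PHM6*, a phosphate-regulated gene of unknown function, at 30.7 in *spt3Δ*, 109 in *spt8Δ* and 883 in WT. *PHO5*, the main secreted acid phosphatase, was at 297 in *spt3Δ*, 341 in *spt8Δ* and 3178 in WT. *SPL2*, which damps low-affinity phosphate uptake, was at 129 in *spt3Δ*, 160 in *spt8Δ* and 3560.0 in WT. *PHO84*, the high-affinity phosphate transporter, was at 6135 in *spt3Δ*, 5531 in *spt8Δ* and 9307 in WT. For these 3 genes the mutants were within 1.24-fold of each other, less than the distance of either from WT.

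**Figure D4:**
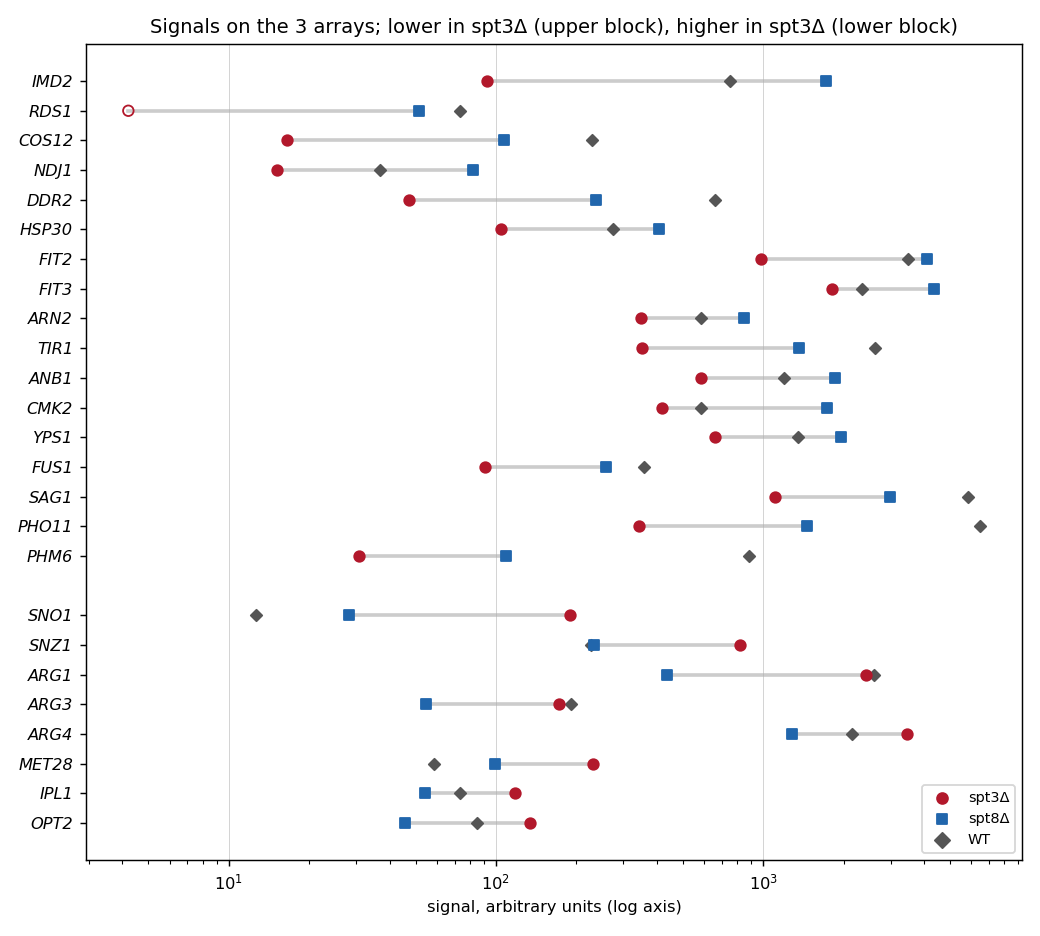
Signals (horizontal log axis, arbitrary units) of 25 genes on the *spt3Δ* (circles), *spt8Δ* (squares) and WT (diamonds) arrays, 1 row a gene, with a grey bar joining the mutants. The open circle of *RDS1* is not above background. In the upper block *spt3Δ* is left of *spt8Δ*, with WT between them for *IMD2*, *NDJ1* and *FIT2* and beyond both for *DDR2*, *SAG1* and *PHM6*, and in the lower block the order of the mutants is reversed.

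Adjacent gene pairs of vitamin B6 synthesis went opposite ways. *SNO1* and *SNZ1* encode subunits of an enzyme of pyridoxal phosphate synthesis. *SNO1* was at 190 in *spt3Δ*, 28.3 in *spt8Δ* and 12.7 in WT, and its ratio of 2.75 (6.71-fold higher in *spt3Δ*) was the highest among genes above background on both arrays. *SNZ1* was at 818 in *spt3Δ*, 232 in *spt8Δ* and 226 in WT, 3.52-fold higher. Their relatives near the left end of chromosome VI were lower in *spt3Δ*. *SNZ3* was at 116 in *spt3Δ*, 307 in *spt8Δ* and 334 in WT, 2.64-fold lower, and *SNO3* was at 134 in *spt3Δ*, 224 in *spt8Δ* and 212 in WT, short of the threshold. Probe sets of *SNZ3* and *SNO3* are shared with close relatives. *THI4*, of thiamine synthesis, was at 63.5 in *spt3Δ*, 131 in *spt8Δ* and 137 in WT, 2.07-fold lower. The remaining genes of the list of 19 had ratios between −0.45 and 0.24. In NAD synthesis, *BNA5*, which cleaves kynurenine, was at 130 in *spt3Δ*, 367 in *spt8Δ* and 905 in WT, 2.83-fold lower, and *BNA2*, which opens the pathway from tryptophan, was at 18.3 in *spt3Δ*, 45.5 in *spt8Δ* and 35.4 in WT. *BIO5*, a transporter of a biotin precursor, was 2.24-fold higher in *spt3Δ*, with 60.8 in *spt3Δ*, 27.1 in *spt8Δ* and 33.6 in WT. The calls of *BNA2* and *BIO5* were lost after adding 50.

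Arginine synthesis held 3 of the higher calls, in a list of 17 genes of synthesis, breakdown and transport, against 0.844% of all genes. *ARG1*, argininosuccinate synthetase, was at 2437 in *spt3Δ*, 437 in *spt8Δ* and 2596 in WT, 5.58-fold higher in *spt3Δ* than in *spt8Δ* (log2 ratio 2.48). *ARG3*, ornithine carbamoyltransferase, was at 172 in *spt3Δ*, 54.9 in *spt8Δ* and 190 in WT, 3.13-fold higher. *ARG4*, argininosuccinate lyase, was at 3459 in *spt3Δ*, 1286 in *spt8Δ* and 2155 in WT, 2.69-fold higher. For *ARG1* and *ARG3* the *spt3Δ* array was close to WT, and *spt8Δ* was the array that stood apart, on the low side. For *ARG4* both mutants stood away from WT, in opposite directions. *ARG7*, of ornithine synthesis, had a ratio of 0.99, below the threshold, with 1160.1 in *spt3Δ*, 584 in *spt8Δ* and 785 in WT. Other synthesis genes had ratios of 0.66 for *ORT1*, the mitochondrial ornithine exporter, 0.46 for *ARG2*, 0.32 for *CPA1* and −0.01 for *ARG8*. Among genes of breakdown, the ratio was −0.45 for the arginase *CAR1*, −0.45 for *CAR2*, −0.60 for *PUT1* and 0.06 for *PUT2*, and over all 17 genes of arginine synthesis, breakdown and transport the median was 0.06 (−0.10 after loess). The regulators *ARG80*, *ARG81* and *ARG82* had ratios of −0.18, 0.36 and −0.13, and the permeases *CAN1* and *GAP1* 0.01 and −0.07. Other amino acid pathways that also respond to Gcn4 held no higher call. Histidine and tryptophan synthesis had no call (16 genes, median 0.24, and 0.20 after loess). Synthesis of branched-chain amino acids had none either (14 genes, median −0.04, and 0.04 after loess). The 9 lysine synthesis genes had a median of 0.324 (0.245 after loess). Their only call, a lower one, was the marker *LYS2*, which was not above background on any array.

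Sulfate assimilation and methionine genes tended to be higher in *spt3Δ*, with a median of 0.40 over 29 genes (0.21 after loess), 21 of them above the median of all genes and 1 called. *MET28*, a bZIP protein that works with the activator Met4, was at 231 in *spt3Δ*, 99.1 in *spt8Δ* and 58.8 in WT, 2.33-fold higher. *MET32*, a zinc finger protein that recruits Met4, was at 194 in *spt3Δ*, 90.3 in *spt8Δ* and 61.0 in WT, just short of the threshold with a ratio of 1.10. *MET2*, the homoserine acetyltransferase, was at 704 in *spt3Δ*, 332 in *spt8Δ* and 168 in WT (ratio 1.08). The order for these genes was *spt3Δ*, *spt8Δ*, WT from high to low. The sulfate permease *SUL2* shared it, with 714 in *spt3Δ*, 376 in *spt8Δ* and 116 in WT (ratio 0.92), as did *MET16*, the PAPS reductase, with 952 in *spt3Δ*, 525 in *spt8Δ* and 241 in WT (ratio 0.86). Enzymes of the methionine and S-adenosylmethionine cycle had ratios near or below 0, among them *SAM1* (−0.30), *SAM2* (−0.14), *SAH1* (−0.23) and *MET6* (−0.10).

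Cell division genes had a shared small offset with few calls. *IPL1*, the Aurora kinase, was at 118 in *spt3Δ*, 54.2 in *spt8Δ* and 73.6 in WT, 2.17-fold higher in *spt3Δ* than in *spt8Δ*, a call lost after adding 50. *NDC80*, which binds microtubules at the kinetochore, was at 168 in *spt3Δ*, 80.7 in *spt8Δ* and 74.8 in WT (ratio 1.06). Over 49 kinetochore and checkpoint genes, a list assembled after values were seen, 46 lay above the median of all genes, 1 was called, and the median was 0.46 (0.26 after loess). *RAD61*, which releases cohesin, was at 114 in *spt3Δ*, 51.1 in *spt8Δ* and 59.7 in WT, 2.23-fold higher, and *PDS1*, the securin, was at 336 in *spt3Δ*, 176 in *spt8Δ* and 196 in WT (ratio 0.94). *SLD2*, needed to start replication, was at 162 in *spt3Δ*, 69.3 in *spt8Δ* and 73.8 in WT, 2.34-fold higher. *HOF1*, of cytokinesis, was at 351 in *spt3Δ*, 163 in *spt8Δ* and 199 in WT, 2.16-fold higher. Among 24 cyclins and cell cycle genes none was called, with a median of 0.46 (0.27 after loess). *CLB6*, an S-phase cyclin, was 1.996-fold higher in *spt3Δ*, below the threshold, *SWI5* had a ratio of 0.73 and *CLB2*, a mitotic cyclin, of 0.67, while the G1 cyclins *CLN2* and *CLN3* had −0.15 and −0.19. Signals of these genes varied. *IPL1*, *RAD61*, *SLD2* and *NDC80* were weak, close to the median signal of 88.3 in the 1363 dimmest genes, whose ratios had an SD of 0.86. The ratio of all genes lay highest in the 1362 genes that follow (median signal 325), a range nearer to *HOF1* and *PDS1*. In RNA from whole cultures, more dividing cells and more transcript per cell cannot be told apart.

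Subunits of the complexes under study shared this offset. Apart from the 2 deleted genes, none of the 19 SAGA and SLIK subunits was called, and all 19 had a ratio above 0, with a median of 0.39 (0.23 after loess). The median of all genes was itself above 0, at 0.09. Against that median, 16 of the 21 subunits, deleted genes included, lay above and 5 below. *NGG1*, of the acetylation module, was at 487 in *spt3Δ*, 323 in *spt8Δ* and 255 in WT (ratio 0.59), and *SPT20*, a structural subunit, was at 258 in *spt3Δ*, 178 in *spt8Δ* and 160 in WT (ratio 0.53). *GCN5*, the acetyltransferase, had a ratio of 0.45 and *SPT7* 0.44. Among 19 genes of TBP and its regulators none was called. *SPT15*, which encodes TBP, was at 3721 in *spt3Δ*, 3338 in *spt8Δ* and 2440 in WT (ratio 0.16). *BUR6*, a subunit of the TBP inhibitor NC2, was at 1231 in *spt3Δ*, 625 in *spt8Δ* and 628 in WT (ratio 0.98), and its partner *NCB2* had a ratio of 0.42, with WT above both mutants. The list had a median of 0.41 (0.29 after loess). Of 22 silencing factors none was called, and 16 lay above the median of all genes. *SIR2*, the histone deacetylase of telomeric silencing, was the lowest, with 198 in *spt3Δ*, 309 in *spt8Δ* and 362 in WT (ratio −0.64). *SIR3* and *SIR4*, its partners in telomeric chromatin, had ratios of 0.37 and 0.41, and *SIR1* 0.30.

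Further single genes stood out. *NDJ1*, a meiotic telomere protein, was at 15.2 in *spt3Δ*, 81.8 in *spt8Δ* and 36.7 in WT, 5.39-fold lower in *spt3Δ* than in *spt8Δ*. *YOL014W*, a gene of unknown function, was at 357 in *spt3Δ*, 1637 in *spt8Δ* and 786 in WT, 4.59-fold lower. *SOM1*, a subunit of the inner membrane peptidase of mitochondria, was at 14.1 in *spt3Δ*, 107 in *spt8Δ* and 167 in WT, 7.63-fold lower. *NCA3*, of the SUN family, was at 18.4 in *spt3Δ*, 92.7 in *spt8Δ* and 178 in WT, 5.04-fold lower. For the first pair of these genes WT lay between the mutants, and for the second pair above both. In the other direction, *CUS1*, a splicing factor of the U2 particle, was at 413 in *spt3Δ*, 155 in *spt8Δ* and 134 in WT, 2.67-fold higher, and *TMT1*, a methyltransferase, was at 417 in *spt3Δ*, 155 in *spt8Δ* and 266 in WT, 2.69-fold higher. Sporulation and meiosis genes held 6 lower and 3 higher calls among 51 genes, against 2.62% and 0.844% of all genes, but their signals were low, 39 of them were above background on both arrays, and the median of 0.12 was near that of all genes.

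Bulk metabolism and growth genes differed by little. Of 29 genes of glycolysis and fermentation none was called, and 26 had ratios below the median of all genes, with a list median of −0.18 (−0.05 after loess). *TDH1*, a glyceraldehyde-3-phosphate dehydrogenase isoform, was at 1291 in *spt3Δ*, 2413 in *spt8Δ* and 4508 in WT (ratio −0.90), and *HXT1*, a low-affinity glucose transporter, was at 1362 in *spt3Δ*, 2614 in *spt8Δ* and 2769 in WT (ratio −0.94). None of the 127 ribosomal protein genes was called. Their median of −0.11 was below that of all genes, but after loess it was 0.02, slightly above it, so these bright genes had no direction that survived scaling. The 60 ribosome biogenesis genes had a median of 0.21 (0.17 after loess) and the 33 proteasome genes 0.10 (0.14 after loess), with no call. Ergosterol genes, 25 in number, had a median of −0.24 (−0.16 after loess) with none called, and 22 below the median of all genes.

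**Figure D5:**
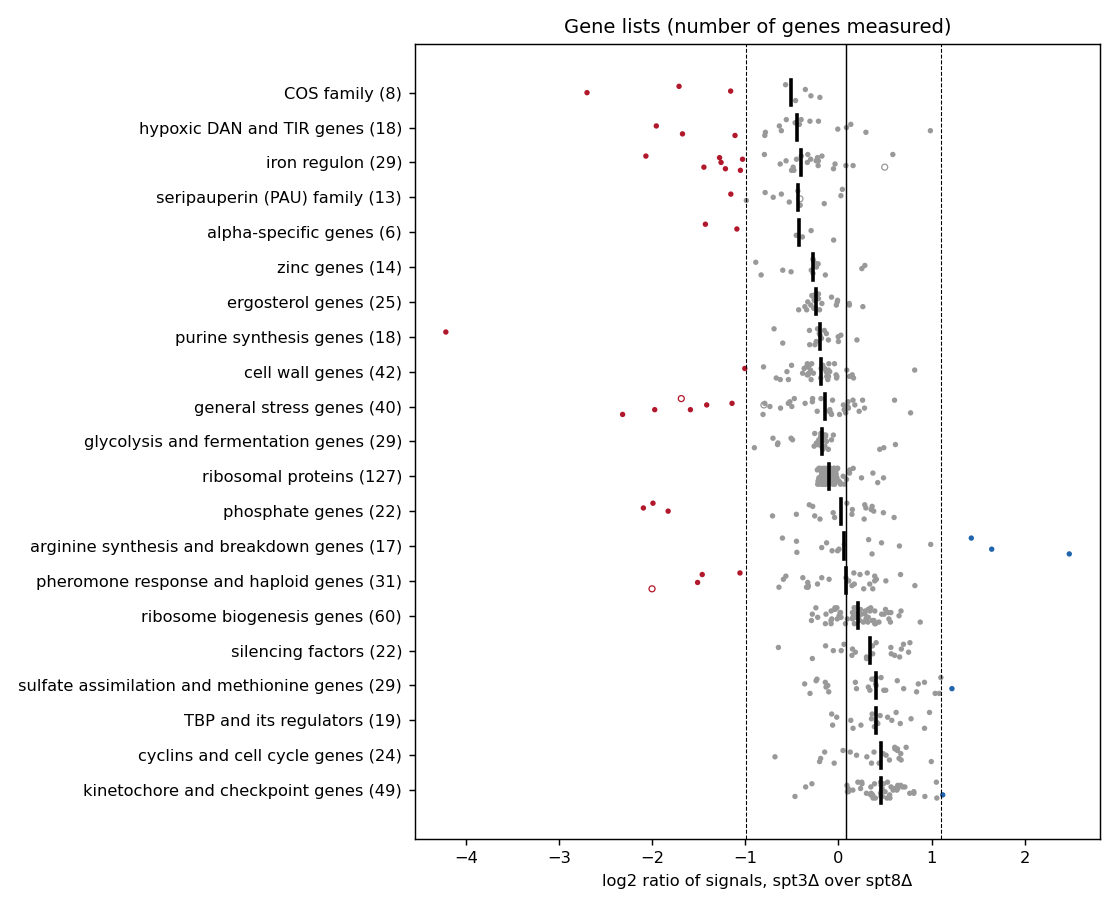
Log2 ratios of *spt3Δ* over *spt8Δ* (horizontal axis) for the genes of 21 lists, 1 point a gene, with list sizes in parentheses and thick bars for list medians. The thin solid line is the median of all genes (0.09), dashed lines are the call thresholds, and open points are not above background on both arrays. The COS, iron and hypoxic lists hold lower calls with medians of −0.51, −0.40 and −0.44, the arginine list holds 3 higher calls, and ribosomal proteins cluster tightly at −0.11.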

How the data were processed

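Total RNA (200 ng) of *spt3Δ*, *spt8Δ* and WT yeast was amplified and hybridized by the authors, 1 array per strain. They deposited 1 intensity per probe set, background-corrected by MAS5 (Affymetrix Expression Console is also named in the submitters' processing notes, with versions not given in the sources used here) and scaled to a common mean, which after trimming 2% from either end was 500.3 in *spt3Δ*, 500.3 in *spt8Δ* and 500.4 in WT. That scaling does not equalize the medians of the *S. cerevisiae* genes, which were 506 in *spt3Δ*, 460 in *spt8Δ* and 430 in WT.

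Of 10928 probe sets, 5498 had 1 *S. cerevisiae* gene in the platform annotation, 1746 had an *S. pombe* gene, 1 had several and 3683 were unnamed and left out. Log2 intensities of probe sets of 1 gene were averaged (47 genes, median range of ratios between probe sets 0.11), and 125 genes had a probe set shared between genes. Gene order came from start coordinates in the R64 gene table, and no distances from chromosome ends were used. Python 3.11.15, pandas 2.3.3 and statsmodels 0.14.6 (loess, span 0.3) were used, and steps were tested on simulated arrays.

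The number of arrays limits precision. Members, lists (50, and 5 more assembled after values were seen) and tests were chosen with earlier results of these data known. Named genes were the 15 lowest and 15 highest ratios of genes that the brighter array detected above background, the deleted genes, the 5 largest ratios (in size) within each list, all of the Chr IIIR, arginine and marker lists and called subtelomeric genes. Other genes were named after their values were seen. Alternatives were thresholds of 2-fold or 2 robust SD, filters on background, quantile and loess scaling, 50 added, a floor at background, shared probe sets left out, and 5 or 12 genes per arm. Motif shares in promoters were planned and not analysed here.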

Additional observations from a re-analysis of the deposited data

Results flagged for a closer look

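Among genes above background on all 3 arrays, 3 had the mutants on opposite sides of WT, *spt3Δ* over 2-fold below it and *spt8Δ* over 2-fold above it. With 1 array per strain the difference was not tested. *IMD2*, an IMP dehydrogenase gene read through a shared probe set, had a log2 ratio of −4.21, with signals of 92.6 in *spt3Δ*, 1719 in *spt8Δ* and 754 in WT. *NDJ1*, a meiotic telomere protein, had a log2 ratio of −2.43, with signals of 15.2 in *spt3Δ*, 81.8 in *spt8Δ* and 36.7 in WT. *YOL014W*, of unknown function, had a log2 ratio of −2.20, with signals of 357 in *spt3Δ*, 1637 in *spt8Δ* and 786 in WT. No such gene showed the reverse at this size.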

How the results depend on the processing

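No paired analysis was possible because each strain has 1 array, and for the same reason no replicate could be left out. The count of lower genes was 125 to 150 and that of higher genes 47 to 73 under the scaling, filter, floor and 2-fold alternatives, against 143 and 46. Except at the 2-fold threshold, the SD rule was refitted under each alternative, so similar counts do not mean the same genes. Past a factor of 1.5 were the threshold of 2 robust SD (296 lower, 135 higher, 58 subtelomeric lower), quantile scaling for higher genes (73) and 5 genes per arm for subtelomeric lower genes (23, against 36). Of the 143 lower and 46 higher genes, 116 and 44 were also called after quantile scaling, 118 and 44 after loess, but 106 and 23 with signals raised to background, and 68 and 17 after adding 50, which shrinks the ratios of weak genes and moves the thresholds. Genes above background on all 3 arrays only, an alternative chosen after seeing the data, gave 147 lower, 57 higher and 36 subtelomeric lower. Its refitted thresholds were nearer to 0, at −0.728 and 0.874, and only 89 of the 143 lower and 21 of the 46 higher genes were among its calls. The filter on both mutant arrays moved them likewise, to −0.73 and 0.874, and shared 90 and 21. The median of hexose transporters relative to all genes turned from −0.29 to 0.03 with quantile and 0.0064 with loess scaling. Of all 189 called genes, 1 lower gene changed sign with quantile scaling and 17 higher genes with signals raised to background, and none of these was above background on both mutant arrays. The genes covered by the naming rule among them were *TDA8* (0.34, quantile) and, with signals raised to background, *HXT14* (−0.078), *YJR154W* (−0.28) and *YAL067W-A*, *YHR212W-A*, *YFR057W*, *YOL164W-A*, *HXT13* and *YOL166W-A* (each −0.37). The cause was not tested. Low signal limits the reading, since only 90 of the 143 lower and 21 of the 46 higher genes were above background on both mutant arrays.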

Other observations

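The 3683 unnamed probe sets were left out of the comparison. Of these, 400 were above background on both mutant arrays, and 19 of the 400 were past the lower and 4 past the upper threshold of the named genes.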
